A study of Mus musculus with 4 samples.

Results

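The 61 genes described here encode enzymes that attach ubiquitin or a ubiquitin-like protein to other proteins, adaptors that bring substrates to those enzymes, and deubiquitinases that remove ubiquitin. They are all rows of the deposited table of 2701 genes whose symbols begin with the names of these families (Ube, Ubr, Uba, Usp, Uch, Otu, Rnf, Trim, Fbx, Klhl, Kbtbd, Cul, Herc, Hect, Nedd4, Wwp, Smurf, Itch, March, Asb, Btbd, Socs, Huwe, Peli and Siah). Usp18 and Herc6, which also have rows, and Rnf213 were set aside by that rule. RNA came from cryosections of the pylorus, the distal part of the stomach, of C57BL/6 mice collected 8 weeks after tamoxifen, in 4 libraries. WT (2 libraries) denotes Lats1fl/fl;Lats2fl/fl mice, and Lats1/2iΔLgr5 (2 libraries) denotes mice of the genotype Lats1fl/fl;Lats2fl/fl;Lgr5-CreER. All mice thus carry the floxed alleles, and no library represents mice with the Cre and intact Lats genes, so effects of the CreER allele and of the deletion cannot be told apart. Lgr5 drives the Cre, so recombination starts in Lgr5-positive gland-base cells and is inherited by their progeny, while the sections also hold unrecombined epithelium and other cells. The labels give no ages and do not say whether the 2 libraries of a group come from separate animals, so p-values measure the spread between these libraries, which may be technical.

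Ubiquitin is activated by an E1 enzyme, passed to an E2 conjugating enzyme and placed on a substrate with the help of an E3 ligase. HECT ligases take ubiquitin onto their own cysteine first. RING ligases, a class that includes most TRIM proteins, bring a loaded E2 to the substrate, and cullins are scaffolds that join a RING protein to exchangeable substrate adaptors of the F-box, BTB-Kelch and SOCS-box families. ISG15 and SUMO are ubiquitin-like proteins with E1 and E2 enzymes of their own. LATS kinases restrain the coactivators YAP and TAZ, and several NEDD4-type HECT ligases bind the PY motifs of Hippo pathway proteins through WW domains.

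Levels below are read counts divided by the authors' size factors (normalized counts), in the order WT 1, WT 2, Lats1/2iΔLgr5 1, Lats1/2iΔLgr5 2. Rose and fell refer to rows of the authors' deposited table, which holds genes with an adjusted p of at most 0.05. Fold changes with their standard errors (SE) are from edgeR on the same size factors. The deposited log2 fold changes, to which the deposited adjusted p belong, are mostly smaller in size. Their slope on the log2 ratios of mean normalized counts was 0.768. Lats1, the deleted gene, was at 2152, 1974, 942.5 and 1129 normalized counts and fell 1.99-fold, which matches the labels in every library. Lats2 was not analysed here. The listed rows held 13413629 to 17689207 counts per library. Of 4 general epithelial markers, Krt8 and Cdh1 had rows; both fell, their sum going from 299616 and 374529 in WT to 214866 and 232100 normalized counts in Lats1/2iΔLgr5. All 4 surface mucous markers (Gkn1, Gkn2, Muc5ac and Tff1) fell, from a sum of 4326069 and 4578813 to 2329384 and 1898614. So did 2 of 5 fibroblast markers (Col1a2 and Col3a1, from 9237 and 12196 to 6867 and 5752) and 1 of 3 endothelial markers (Kdr, from 461.9 and 698.2 to 334.1 and 338.4). Of 4 enteroendocrine markers, Ghrl and Sst rose, from a sum of 63.1 and 72.8 to 317.8 and 1625. Of 4 pancreatic acinar markers, Cela1 rose and Cela2a fell, with a sum of 5375 and 3839 in WT and 7787 and 9963 in Lats1/2iΔLgr5. None of 9 muscle, 7 immune, 3 parietal, 2 chief and 3 gland and neck mucous markers had a row to examine. The part of these shifts in the results on the members was not tested.

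Of the 61 members, 17 rose and 44 fell in the Lats1/2iΔLgr5 pylorus. They are 11.9% of the 511 annotated protein-coding genes of these families, and 11.9% of all 21992 protein-coding genes were listed as well, so the families were not listed more often than other genes. The authors called an inferred 8.81% of tested genes higher and 11.7% lower. Rises made up 27.9% of the members and 42.9% of all listed rows; no test was run on this split. Without the 9 members on a list of interferon-induced genes the share of rises was 32.7%. The median log2 fold change was -0.61 over the members and -0.50 over all listed rows. In every member the 2 libraries of one group lay entirely above or below those of the other, as in 99.9% of listed rows, since rows were chosen for a group difference.

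**Figure D1:**
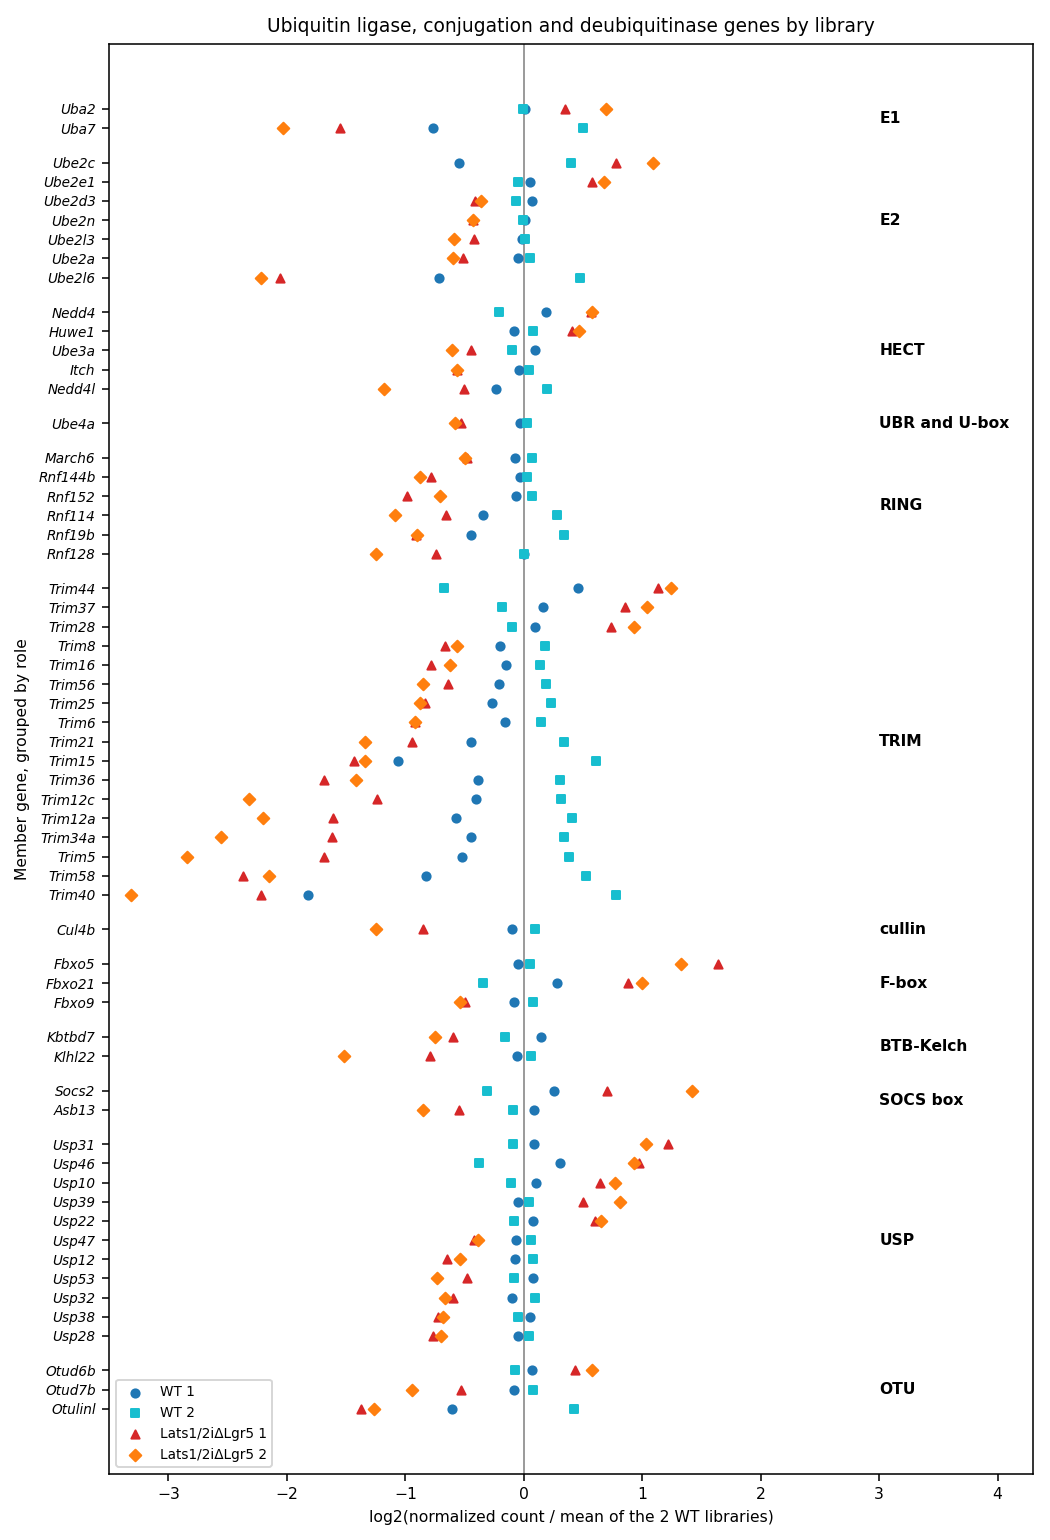
Each point is 1 library's normalized count divided by the mean of the 2 WT libraries, on a log2 scale, for the members reported by name, grouped by role; blue symbols are WT and red or orange symbols are Lats1/2iΔLgr5. The 17 members that rose have both red and orange symbols to the right of both blue ones, and the wide gaps between blue symbols, as in Trim40, show members in which WT 1 and WT 2 differ.

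By edgeR's quasi-likelihood test on the authors' size factors, 17 members were higher and 44 lower at an adjusted p under 0.05, beside 42.9% and 57.1% of all rows tested. Nearly every listed row (99.9%) passed, so this count carries no information about the members. Fewer members, and fewer rows of the whole table, passed when any 1 library was left out, fewest without Lats1/2iΔLgr5 replicate 2. Without WT replicate 2 the median log2 fold change was -0.521 over the members and -0.435 over all listed rows. Without Lats1/2iΔLgr5 replicate 1 these medians were -0.62 and -0.505, and without Lats1/2iΔLgr5 replicate 2 they were -0.546 and -0.46. The choice of scale touched the falls. TMM, computed from the listed rows alone, moved all log2 fold changes up by 0.36. On that scale all 17 rises passed the edgeR test, beside 1157 rows called higher over the whole table, where 1158 rose. Of the 44 falls 12 passed, beside 495 rows called lower over the whole table, where 1543 fell. The 12 were Cul4b, Klhl22, Rnf128, Trim5, Trim12a, Trim12c, Trim25, Trim34a, Trim36, Trim58, Uba7 and Ube2l6. With size factors computed from the listed rows, 17 rises and 11 falls passed (58.9% of all rows in either direction). The other 32 members that fell did so on the authors' scale, and their edgeR adjusted p on the TMM scale was 0.05 or more. TMM assumes that most rows do not change, which a table of called genes does not satisfy.

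**Figure D2:**
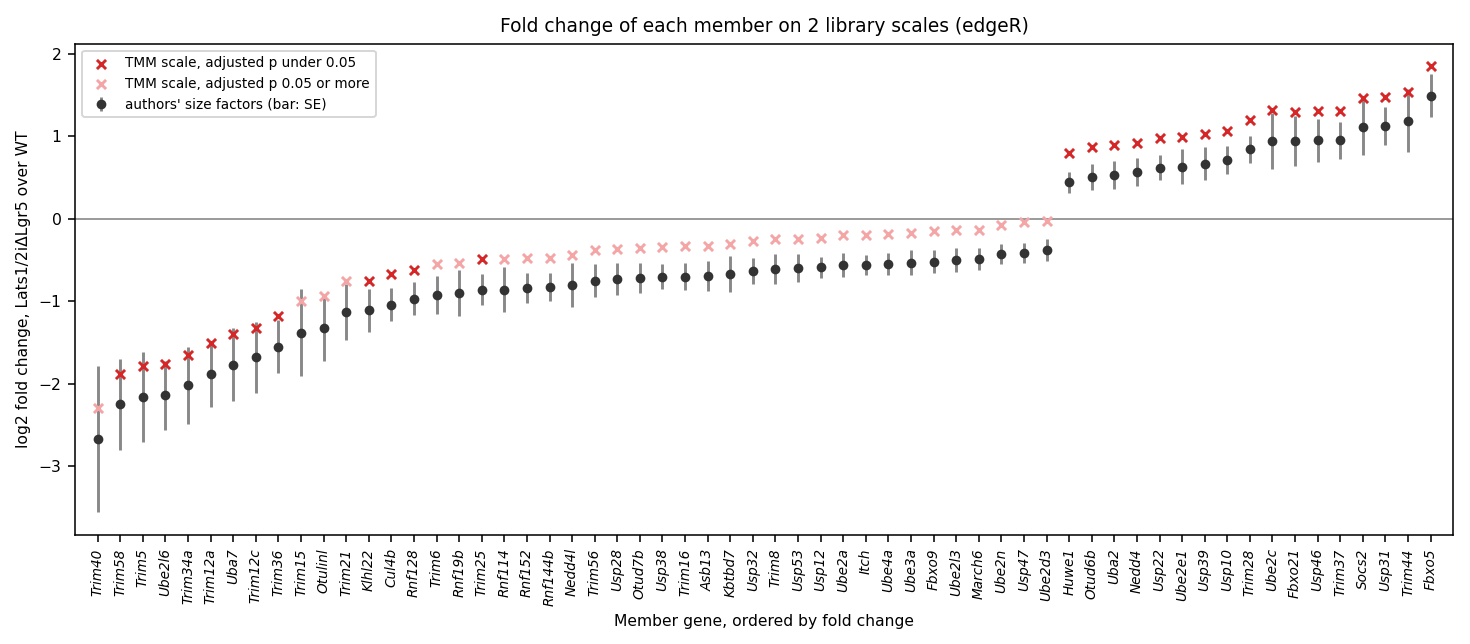
Log2 fold change of each member shown, Lats1/2iΔLgr5 over WT, ordered by size: black points with SE bars use the authors' size factors, and crosses use TMM scaling (dark, adjusted p under 0.05; pale, above it). No member lies between -0.38 and 0.44 on the authors' scale because the table holds only called genes, and the crosses of Ube2d3, Usp47 and Ube2n lie next to 0.

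Among activating enzymes, Uba2 rose and Uba7 fell. Uba7, the E1 of ISG15, was at 1310, 3149, 758.7 and 545.5 normalized counts. WT 2 stood far above WT 1, and both Lats1/2iΔLgr5 libraries lay below WT 1. Its mean fell 3.42-fold, a log2 fold change of -1.77 ± 0.44 (SE; adjusted p = 5.74e-04, the authors' deposited table), and the log2 fold change was -1.01 without WT replicate 2. Uba2, the catalytic subunit of the SUMO E1, was at 1681, 1664, 2126 and 2707, a 1.44-fold rise. Its partner subunit Sae1, which the family names do not cover, rose 1.41-fold, from 1630 ± 73.0 to 2303 ± 177 normalized counts (SD, n = 2). The E1 genes of ubiquitin itself, Uba1 and Uba6, have no value here.

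Of 37 annotated Ube2 genes, 7 were listed (18.9%, beside 11.9% of all protein-coding genes), 2 higher and 5 lower. Ube2l6, the E2 of ISG15, had the largest fall among E2 genes: 440.4, 1005, 173.8 and 154.8 normalized counts, 4.40-fold lower, with a log2 fold change of -2.14 ± 0.42 (SE; adjusted p = 3.87e-05, the authors' deposited table). As for Uba7, WT 2 lay high, at 2.28 times WT 1, and without WT replicate 2 the log2 fold change was -1.42. Ube2c, which works with the anaphase-promoting complex (APC/C) in mitosis, rose 1.92-fold, from 413.9 and 796.3 to 1037 and 1290. Its adjusted p listed by the authors' deposited table, 0.0462, was the largest of any member. Ube2e1 rose 1.55-fold (315.5, 293.4, 454.5 and 486.9).

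The other 4 E2 genes fell by small amounts with close replicates. Ube2n (UBC13), which builds lysine-63-linked chains, was at 3520, 3476, 2593 and 2599 normalized counts, 1.35-fold lower. Ube2a, a RAD6 enzyme that acts with RAD18 at stalled replication forks, fell 1.47-fold, while Rad18 itself rose 2.87-fold, from 116 ± 17.3 to 332 ± 84.8 (SD, n = 2). Ube2l3, which serves HECT and RBR ligases, fell 1.42-fold and the broadly used Ube2d3 1.30-fold. On the TMM scale these 4 had edgeR adjusted p from 0.249 to 0.852, and with size factors computed from the listed rows Ube2d3 turned to a log2 fold change of 0.02. Annotated copies hold 8.85% of the 75-base words of Ube2n transcripts and 6.71% of those of Ube2l3, so their counts are somewhat uncertain.

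HECT ligases went both ways, 2 higher and 3 lower of 19 annotated (26.3% listed, beside 11.9% of all protein-coding genes). Nedd4, which targets membrane proteins for endocytosis, was at 8832, 6700, 11488 and 11550 normalized counts. Both Lats1/2iΔLgr5 libraries were nearly equal and above both WT libraries, a 1.48-fold rise with a log2 fold change of 0.57 ± 0.17 (SE). Its closest relative Nedd4l, known for controlling the epithelial sodium channel, moved the other way: 2656, 3578, 2201 and 1377, a 1.74-fold fall with a log2 fold change of -0.80 ± 0.27 (SE). The edgeR adjusted p of Nedd4l on the TMM scale was 0.166. Itch, another NEDD4-type ligase, which can ubiquitinate LATS1, fell 1.48-fold with tight replicates (3477, 3686, 2426 and 2421; adjusted p listed by the authors' deposited table, 0.00191), with an edgeR adjusted p of 0.156 on the TMM scale. Ndfip2, an adaptor that activates ligases of this type, fell 1.48-fold as well.

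Huwe1, a very large ligase with Myc and Mcl1 among its substrates, rose 1.36-fold (4132, 4610, 5806 and 6047). Ube3a, the E6AP ligase, fell 1.44-fold (2728, 2392, 1880 and 1678). Ube4a, a U-box ligase that extends ubiquitin chains and the 1 listed gene of 8 in the Ubr and Ube4 families, fell 1.47-fold, from 3322 ± 91.9 to 2264 ± 60.0 (SD, n = 2).

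Of 102 annotated genes of the Rnf, March, Siah and Peli families, 6 were listed (5.88%, beside 11.9% of all protein-coding genes). All 6 fell, while 42.9% of all listed rows rose. Rnf128 (GRAIL, a transmembrane ligase first studied in T cell anergy) was the most abundant member per exon length. It was at 22189, 22208, 13269 and 9340 normalized counts, the WT libraries nearly equal and the Lats1/2iΔLgr5 libraries both far lower. The fall was 1.96-fold, with a log2 fold change of -0.97 ± 0.20 (SE; adjusted p = 2.47e-04, the authors' deposited table) and an edgeR adjusted p of 0.0316 on the TMM scale. Rnf144b, an RBR ligase, fell 1.78-fold (1018, 1062, 605.7 and 565.9). Rnf152, a lysosomal ligase that acts on mTORC1 signalling, fell 1.79-fold (1489, 1637, 786.8 and 957.4). Both sat just outside the threshold on the TMM scale, at edgeR adjusted p of 0.0538 and 0.0575.

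In Rnf19b and Rnf114 the WT libraries differed, WT 2 being 1.72 and 1.55 times WT 1, and the falls were 1.87-fold and 1.81-fold. March6, an endoplasmic reticulum ligase that degrades sterol synthesis enzymes, fell 1.40-fold, from 3971 ± 288 to 2829 ± 20.8 (SD, n = 2).

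TRIM genes were the largest group, with 17 of 68 annotated genes listed (25%, beside 11.9% of all protein-coding genes), 3 higher and 14 lower. The lower ones had a median log2 fold change of -1.47. It was -0.77 over all 44 members that fell, these 14 included, and -0.73 over all listed rows that fell. Trim5, Trim12a, Trim12c, Trim21, Trim25 and Trim34a among the 14 are on the list of interferon-induced genes. WT 2 was more than 1.5 times WT 1 in 9 of the 14 (64.3%), beside 31.8% of all members that fell and 12.6% of all listed rows that fell. Leaving out WT 2 took the median of the 14 to -0.80, and leaving out WT 1 took it to -1.92. Over all listed rows that fell these medians were -0.65 and -0.818.

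A cluster of related TRIM genes on chromosome 7 (GRCm38) held 5 members, all lower, 4 of them by more than 3-fold. Genes of the cluster without a row have no value here, and Trim34b, a relative of Trim34a, has no row. The 5 are thus the listed genes and not the whole cluster. Trim6 (104218793 to 104235152), Trim34a (104244457 to 104340693), Trim5 (104263386 to 104288094), Trim12a (104299894 to 104315466) and Trim12c (104338754 to 104353362) lie close together. The annotated span of Trim34a reaches across its neighbours. TRIM5 proteins are cytoplasmic restriction factors that recognise retroviral capsids, and Trim12a and Trim12c are its mouse relatives. Trim5 was at 156.5, 293.4, 69.7 and 31.3 normalized counts, a 4.45-fold fall. Trim34a was at 191.8, 332.0, 85.1 and 44.6, a 4.04-fold fall, and Trim12a at 575.4, 1133, 279.8 and 185.2, a 3.67-fold fall. Trim12c fell 3.21-fold (753.4, 1245, 422.8 and 200.1). In all 4 the order of the libraries was the same, WT 2 highest and Lats1/2iΔLgr5 2 lowest. Trim6 fell 1.89-fold with nearly equal Lats1/2iΔLgr5 libraries (392.5, 486.4, 231.8 and 232.9).

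Trim5, Trim12a and Trim12c are identical to one another in places, so some of their reads cannot be assigned to 1 gene by sequence. How the counting treated such reads is not given. Of the 75-base words of annotated transcripts, 20.6% of those of Trim5, 16.9% of those of Trim12c and 5.25% of those of Trim12a also occur in another gene, mostly one of these 3, so their changes may not be fully separate measurements. For Trim34a it was 29.5%, shared with Trim34b. Leaving out Lats1/2iΔLgr5 replicate 1 took Trim5 from -2.16 to -2.84 and Trim12c from -1.68 to -2.32 on the log2 scale.

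Further off on the same chromosome, Trim21 (102557922 to 102565469), a cytosolic antibody receptor, fell 2.19-fold (373.5, 646.3, 264.4 and 200.9). Trim25 on chromosome 11, which activates the RNA sensor RIG-I and was the second most abundant member per exon length in WT, fell 1.81-fold, from 8672 and 12212 to 5840 and 5672, with 0.00149 as the adjusted p listed by the authors' deposited table.

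Trim5, Trim12a, Trim12c, Trim21, Trim25, Trim34a, Rnf114, Uba7 and Ube2l6 are the 9 listed members of the 17 eligible genes on the list of interferon-induced ligases and conjugating enzymes. None of the 9 rose, beside 42.9% of all listed rows, and 52.9% of the 17 were listed, beside 11.9% of all protein-coding genes. Their median log2 fold change was -1.77, and leaving out WT 2 or WT 1 took it to -1.28 or -2.27. The direction of this list was known from earlier results on interferon-stimulated genes in the same libraries, so the count is no independent evidence. In 8 of the 9, WT 2 was more than 1.5 times WT 1. A marker list of 12 interferon-stimulated genes, all listed, moved with them, with summed levels of 8538 (WT 1), 25068 (WT 2), 2489 (Lats1/2iΔLgr5 1) and 1898 (Lats1/2iΔLgr5 2); its part in these results was not tested. In bulk tissue, fewer cells of a type and less RNA per cell cannot be told apart.

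The promoter windows of 5 of these 9 genes held the letters GAAA, any 2 bases and GAAA, searched on both strands, the core of the interferon-stimulated response element to which the STAT and IRF factors of interferon signalling bind. Of all 27025 genes with a window (250 bases before to 50 after a start, RefSeq, GRCm38.p6), 3.99% held it. The stretches of 30 bases around the matches are shown because they hold these letters and because those of Trim5, Trim12a and Trim12c are nearly the same; they run in the direction of the gene, with the match in capitals (TTTC, 2 bases and TTTC where it lies on the opposite strand).
Trim5: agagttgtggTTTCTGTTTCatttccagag
Trim12a: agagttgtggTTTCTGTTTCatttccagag
Trim12c: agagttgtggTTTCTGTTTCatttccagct
Trim34a: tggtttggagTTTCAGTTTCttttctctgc
Trim21: agaggaaactGAAAGTGAAAtttggactgc

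The stretch of Trim5 (chr7:104288136-104288165, minus strand) is identical to that of Trim12a (chr7:104315466-104315495, minus strand) in 30 of 30 bases and to that of Trim12c (chr7:104353359-104353388, minus strand) in 28. Trim34a (chr7:104244457-104244486, plus strand) shares 18 with Trim5, with the TTTC blocks of the match among them. The Trim21 stretch (chr7:102565444-102565473, minus strand) holds a second, overlapping match. Among the members that fell and are not on the interferon list, 1 of 27 with a window had a match (Klhl22), and none of 13 members that rose did. Windows were found for 49 members; Itch, Nedd4l, Otud6b, Otud7b, Socs2, Trim8, Trim16, Trim36, Usp22, Usp39 and Usp53 were among those without one. The E-box CACGTG, to which Myc can bind, was in the windows of 1 of the 13 members that rose (Usp31). It was also in 3 of the 36 that fell (Klhl22, Trim25 and Usp32) and in 8.09% of all genes. The TEAD element GGAATG was in 2 of the 49 members (Ube2c and Trim15) and in 16.6% of all genes. A match is a description and not a binding site.

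Of the 14 TRIM genes that fell, those outside the interferon list included Trim15, Trim40 and Trim58, in which the WT libraries differed most. Trim15 and Trim40 lie close together on chromosome 17 (36860691 to 36867210 and 36881598 to 36890123). Trim40 was at 130.0, 789.7, 98.7 and 46.1 normalized counts and Trim15 at 387.4, 1233, 300.6 and 320.4. WT 2 was 6.08 and 3.18 times WT 1. The 6.35-fold fall of Trim40 was the largest among the members by mean normalized counts. In the authors' deposited table its log2 fold change was -1.57, and the largest fall of a member was that of Ube2l6, -1.77. The falls of Trim40 and Trim15 (2.61-fold) rest mostly on WT 2. Leaving it out took Trim40 from -2.67 to -0.85 and Trim15 from -1.38 to -0.32 on the log2 scale. Leaving out WT 1 took them to -3.45 and -1.99, and Trim40 came to -3.32 when Lats1/2iΔLgr5 1 was left out. Trim58, a ligase of dynein in maturing red blood cells, fell 4.78-fold at a low level (92.1, 234.9, 31.7 and 36.7), with a log2 fold change of -1.42 without WT replicate 2 in place of -2.25.

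Trim36 fell 2.92-fold (330.6, 531.6, 134.0 and 161.0). Its adjusted p in the authors' deposited table was 4.30e-04. Trim16, Trim56 and Trim8 fell 1.62-fold, 1.68-fold and 1.53-fold.

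**Figure D3:**
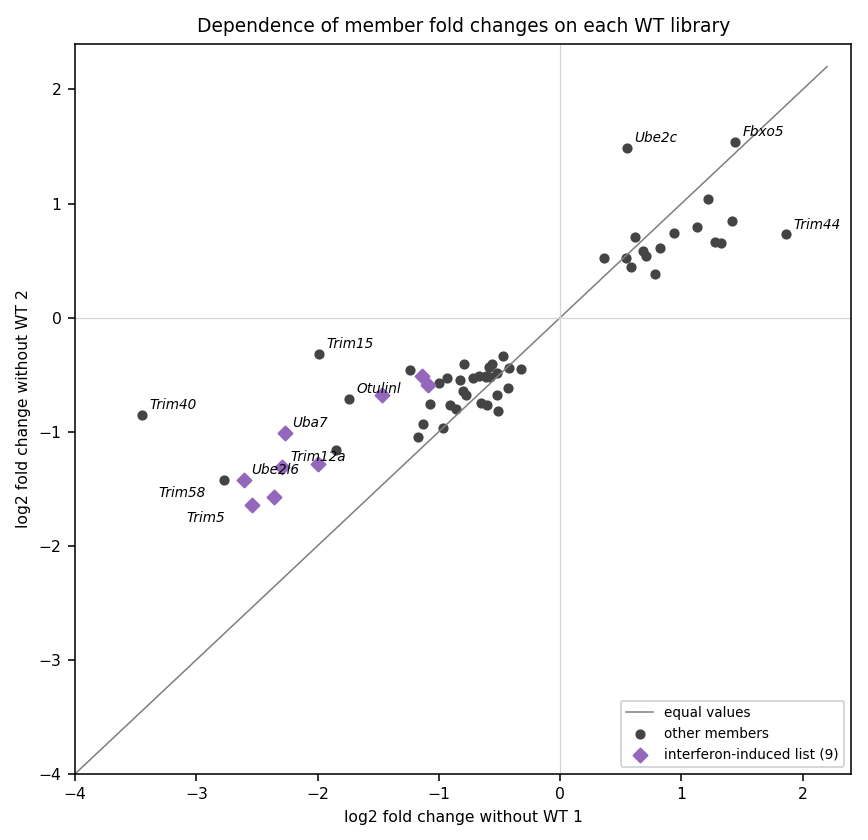
Each point is the log2 fold change of 1 member shown in the other plots, without WT 1 (horizontal axis) and without WT 2 (vertical axis); purple diamonds are the 9 members on the interferon-induced list and the line marks equal values. All 9 diamonds lie above the line, meaning a smaller fall without WT 2, and Trim40 and Trim15 lie farthest from it among the members that fell.

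The 3 TRIM genes that rose were Trim28, Trim37 and Trim44. Trim28 (KAP1), the corepressor recruited by KRAB zinc finger proteins, was at 1662, 1451, 2591 and 2975 normalized counts. Its libraries were close within each group, and the 1.79-fold rise (adjusted p = 1.65e-04, the authors' deposited table) had a log2 fold change of 0.84 ± 0.16 (SE). Trim37, a ligase of centrosomes and peroxisomes, rose 1.93-fold (430.3, 338.6, 695.4 and 790.2). Trim44 rose 2.28-fold, from unequal WT libraries at 583.0 and 266.9 to 934.4 and 1006, with a log2 fold change of 1.19 that became 1.86 without WT replicate 1.

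Cullin-based ligases had few listed parts. Cul4b, on the X chromosome, was the 1 listed cullin of 8, at 1937, 2220, 1152 and 876.2 normalized counts. The fall was 2.05-fold, with a log2 fold change of -1.04 ± 0.20 (SE; adjusted p = 1.27e-04, the authors' deposited table). Klhl22, a CUL3 adaptor that acts on PLK1 and on mTORC1 signalling, fell 2.16-fold (1770, 1918, 1063 and 644.8). Kbtbd7, also a CUL3 adaptor, fell 1.59-fold (623.4, 504.0, 373.0 and 335.3); 14.6% of its 75-base words occur in Kbtbd6 too. These were 2 of 88 annotated BTB-Kelch genes (2.27%, beside 11.9% of all protein-coding genes).

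Fbxo5 (EMI1), an inhibitor of the APC/C that lets cells enter S phase and mitosis, had the largest rise of any member. It was at 116.1, 124.6, 374.8 and 302.5 normalized counts, 2.81-fold higher, with a log2 fold change of 1.49 ± 0.26 (SE; adjusted p = 5.97e-05, the authors' deposited table). Fbxo21 rose 1.92-fold at a low level (200.6, 130.1, 304.2 and 329.8). Fbxo9 fell 1.43-fold, from 2199 ± 170 to 1539 ± 31.6 (SD, n = 2). Only these 3 of 77 annotated F-box genes were listed, or 3.90%, against 11.9% of protein-coding genes; genes not expressed in this tissue are part of the 77.

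Socs2, a feedback inhibitor of growth hormone and cytokine receptors, rose 2.15-fold, with unequal Lats1/2iΔLgr5 libraries (306.7, 207.3, 418.3 and 689.4). Asb13, a substrate adaptor of SOCS-box ligases, fell 1.62-fold (1440, 1280, 931.7 and 752.7).

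Deubiquitinases of the Usp family split nearly evenly, 5 higher and 6 lower of 55 annotated (20% listed, beside 11.9% of all protein-coding genes). Usp31 was at 199.4, 175.4, 435.5 and 383.0 normalized counts, a 2.18-fold rise with a log2 fold change of 1.13 ± 0.23 (SE; adjusted p = 6.97e-04, the authors' deposited table). Usp10, which acts on p53 and binds the stress granule protein G3BP1, rose 1.64-fold (947.7, 816.2, 1381 and 1505). Usp22, the deubiquitinase of the SAGA coactivator, rose 1.54-fold (1107, 988.2, 1584 and 1640). Usp39, a spliceosomal protein of this family without protease activity, rose 1.59-fold (487.1, 518.4, 710.8 and 884.0).

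Usp46 and Usp12, close relatives that share the activating partner WDR48, moved in opposite directions. Usp46 rose 1.94-fold (725.6, 452.2, 1158 and 1123) and Usp12 fell 1.51-fold (3392, 3771, 2280 and 2468). Per kb of exon, Usp12 remained the more abundant: 772 against 75.1 normalized counts in WT and 512 against 146 in Lats1/2iΔLgr5. Both passed the authors' threshold, but the edgeR adjusted p of Usp12 on the TMM scale was 0.141.

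The other Usp genes that fell did so by 1.32-fold to 1.66-fold, with libraries close within each group. Usp38 was at 1522, 1423, 892.7 and 915.2 normalized counts, a log2 fold change of -0.70 ± 0.15 (SE). Usp28, a deubiquitinase that can stabilise Myc, fell 1.66-fold (551.5, 587.9, 335.0 and 350.9) and Usp32 1.55-fold. Usp53, a tight junction protein, fell 1.52-fold, and Usp47 1.32-fold; with size factors from the listed rows the log2 fold change of Usp47 was 0.003. None of these 5 passed the edgeR test on the TMM scale.

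No Uch gene had a row. Of 12 Otu genes, Otud6b rose 1.42-fold (1065, 968.4, 1369 and 1519). Otud7b (Cezanne), which cleaves lysine-11-linked chains, fell 1.65-fold (3827, 4293, 2815 and 2115). Otulinl, a relative of OTULIN without known deubiquitinase activity, fell 2.49-fold at a low level (223.4, 458.8, 131.3 and 142.2). Its log2 fold change was -0.71 without WT replicate 2 in place of -1.32.

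Per kb of exon, levels spanned from 18.2 normalized counts (Usp31) to 6408 (Rnf128) in WT. After Rnf128 came Trim25 at 1815, then Ube2n at 829, Usp12 at 772 and Ube2a at 755. The WT libraries of Trim25 (1507 and 2122) did not reach any of its neighbours, whereas the libraries of Usp12 (731 and 813) and Ube2a (729 and 781) overlapped. The lowest after Usp31 were Socs2 at 27.0, Fbxo21 at 29.8 and Trim37 at 53.3, all members that rose. Fbxo5, at 60.1 in WT and 169 in Lats1/2iΔLgr5, and Trim5, at 61.0 and 13.7, started from alike levels and ended apart.

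**Figure D4:**
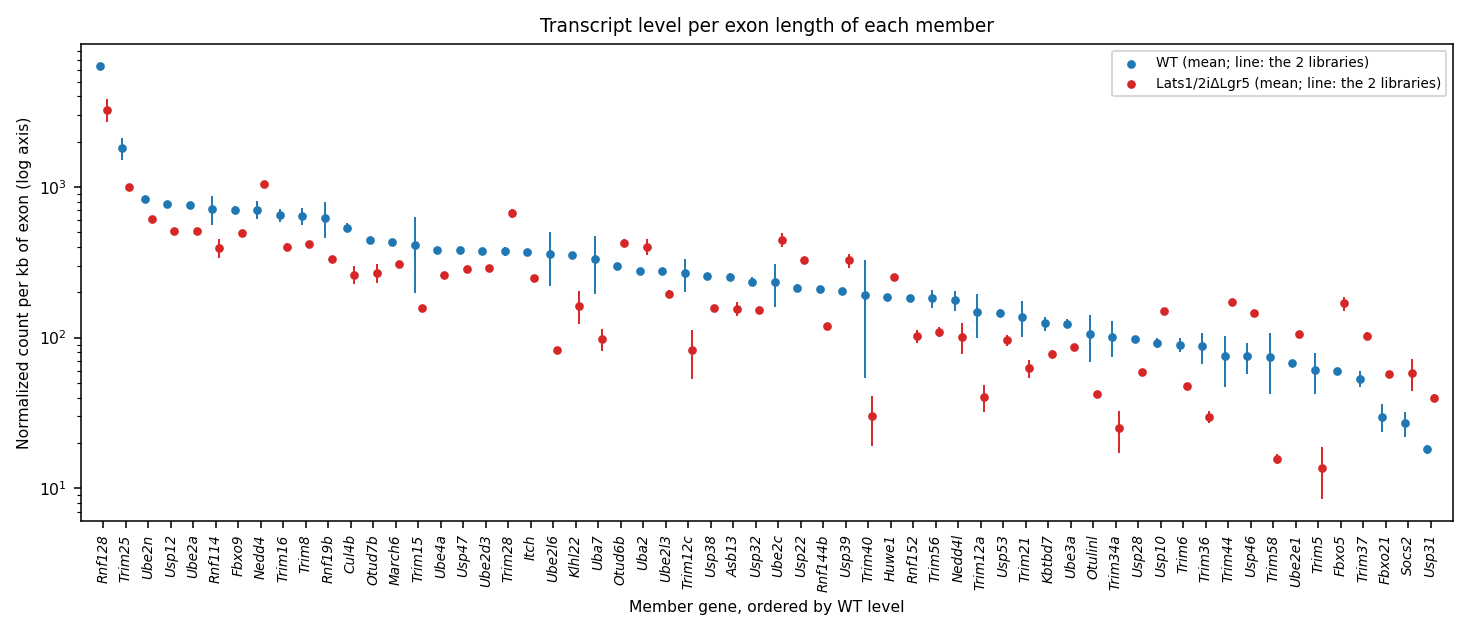
Normalized counts per kb of exon (log axis) for each member shown, ordered by the WT mean; points are group means and vertical lines join the 2 libraries. Rnf128 lies highest in both groups (6408 in WT and 3263 in Lats1/2iΔLgr5), and the 3 members lowest in WT (Fbxo21, Socs2 and Usp31) all rose.

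Functional lists overlapped the members only in part; their counts stand beside 11.9% of all protein-coding genes listed, 42.9% of listed rows being higher. Of 16 ligases and deubiquitinases reported to act on Hippo proteins, 5 were listed: Nedd4 and Usp10 rose, and Itch, Nedd4l and Usp47 fell. Of 10 that act on Myc or in the nucleolus, Huwe1, Usp10 and Usp22 rose and Usp28 fell. Of 23 with cell cycle or replication roles, Fbxo5, Trim37 and Ube2c rose and Klhl22, Ube2a and Ube2n fell. Beside Fbxo5 and Ube2c, a marker list of 5 cycling-cell genes, all listed and all higher, summed to 3946 and 6484 normalized counts in WT and 13486 and 15782 in Lats1/2iΔLgr5; its part in these rises was not tested. None of 21 muscle-associated members had a row.

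Of 177 other ubiquitin pathway genes outside these families, 25 were listed (14.1%, beside 11.9% of all protein-coding genes), 10 higher and 15 lower. Uhrf1, a ligase that reads hemimethylated DNA at replication, rose 4.12-fold, from 284 ± 67.9 to 1170 ± 128 normalized counts (SD, n = 2). Anapc5, a subunit of the APC/C, rose 1.61-fold and Ccnf, the F-box protein cyclin F, 2.88-fold. Dtx3l, an interferon-induced ligase, fell 4.18-fold, from 2041 ± 938 to 488 ± 196. Cyld, a deubiquitinase of NF-κB signalling, fell 1.73-fold, Arrdc4, an arrestin-like adaptor of NEDD4-type ligases, 1.76-fold, and Mdm2, the p53 ligase, 1.58-fold. On the TMM scale all 10 rises and 3 of the 15 falls passed the edgeR test (Dtx3l, Cyld and Arrdc4 among the falls).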

How the data were processed

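Per the labels' protocols, RNA from several 10 µm cryosections was made into strand-marked poly(A) libraries read from both ends at 75 bp. GRCm38, HTSeq, DESeq2 and TopHat2 2.1.1 stand in the submitters' processing notes, with settings and strand handling not given in the sources used here. Read counts of each gene in each library are in the deposited table, unnormalized. Its other columns, per the file headers, are the authors' base mean (signal: the average normalized count), log2 fold change with its error, Wald statistic (a score), p-value and adjusted p-value. Its 2701 rows reach an adjusted p of 0.05; the number of genes tested, inferred from the p-values, is 13137.

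Size factors recovered from the deposited base means were 0.792 and 0.907 (WT) and 1.10 and 1.28 (Lats1/2iΔLgr5). edgeR 4.0.16 (filterByExpr, quasi-likelihood test, genotype only, Benjamini-Hochberg at 0.05 over all rows) was run on them and tested on simulated data; SE is the log2 fold change divided by the root of F. GENCODE M21 names matched 2698 IDs; 1 was added to deposited starts. Exon length is the union of annotated exons. DESeq2 1.42.0 and the other settings are alternatives. Members and lists were chosen with earlier results of these data known. Named genes are a fixed list of well-known members, up to 3 per role and direction by deposited adjusted p, and the 8 largest rises and falls at a base mean of at least 50; the other members named were added after their values were seen. 1 member that fell is counted but not reported by name here.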

Additional observations from a re-analysis of the deposited data

How the results depend on the processing

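On the authors' scale 17 members were called higher and 44 lower by edgeR, and 10 and 15 of the other ubiquitin pathway genes; DESeq2's Wald test and no low-count filter gave the same member counts. Scaling changed the counts of falls and not of rises: TMM left 12 members and 3 other genes lower and a member median of -0.246, and size factors from the listed rows left 11 and 2 and a median of -0.2, with Ube2d3 at 0.020 and Usp47 at 0.003 reversed. Adding a minimum size of 1 for the absolute log2 fold change left 4 members higher and 14 lower, and 5 and 1 of the other genes. That cut was not counted over all listed rows, so this split cannot be set against the whole table. Without 1 library in turn, members called higher numbered 0 to 15 and lower 0 to 41, other genes 0 to 9 and 0 to 14, and the median ran from -0.62 to -0.521. The counts of 0 came without Lats1/2iΔLgr5 replicate 2, where edgeR called 5 rows of the whole table and 29 members had an unadjusted p under 0.05; without Lats1/2iΔLgr5 replicate 1, 6 members were higher and 17 lower. With 1 library left in a group, it is assumed to vary like the other group's. Fewer rows of the whole table passed as well, whichever library was left out, so these losses were not confined to the members. The cause of the losses was not tested. The sign of every member held without each library.

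Same-numbered libraries deviated from their group means with a correlation of -0.162 over all rows and -0.427 over the members. Each group gives only 1 pair of numbers, so this cannot tell whether same-numbered libraries belong together. With the replicate block 15 members were higher and 40 lower (9 and 13 other genes), and 2535 rows of the whole table passed. With the crossed pairing, added after seeing the data, 17 members were higher and 43 lower, and 2660 rows of the whole table passed. The lowest normalized count of any member in any library was 31.3 (Trim5).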
